A study of Mus musculus with 8 samples.

Results

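The signal transducer and activator of transcription (STAT) genes and the Janus kinase (JAK) genes were followed in sorted hair follicle cells with raised or normal Runx1. The set held every probe set that the array annotation gives to Stat2, Stat3, Stat4, Stat5a, Stat5b, Stat6, Jak1, Jak2 or Jak3 alone, which was 19 of the 45037 probe sets that are not controls. They belong to 9 of the 18193 genes measured, with 1 to 4 probe sets each. A further 2 probe sets name Jak3 together with Insl3 and were left out. The 8 arrays fall into 4 groups of 2: Runx1 iTG hair germ, WT hair germ, Runx1 iTG bulge and WT bulge. Runx1 iTG marks mice with a Tet-on Runx1 transgene, and WT mice served as controls. Mice of both genotypes ate food with doxycycline at 1 g per kg for 1 day. The treatment record says that doxycycline was given to repress H2BGFP. Neither the promoter that drives the transgene nor the number of animals per sample is stated in the labels. The mice were 20 days old and their follicles were at rest (telogen), while the label of replicate 2 in Runx1 iTG hair germ and in Runx1 iTG bulge gives an age of 21 days. Cells positive for keratin 15-GFP and α6-integrin were sorted, and CD34-positive cells were taken as bulge and CD34-negative cells as hair germ.

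Cytokines and hormones bind receptors that carry JAK kinases on their inner side. The kinases phosphorylate each other, the receptor and the STAT proteins, which then pair, enter the nucleus and bind DNA. SOCS and PIAS proteins and several phosphatases turn the signal down. In mouse skin, Stat3 in keratinocytes is required for normal entry into hair growth, signals through the oncostatin M receptor and JAK kinases are tied to the resting state of follicle stem cells, and Runx1 has been linked to Stat3 activity in epithelial cells through Socs genes. Arrays measure messenger RNA and not phosphorylation, so the values below are levels of transcripts.

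Signals below are the deposited intensities scaled to a common 75th percentile, on a linear scale, and background is a signal of 31.1. Runx1 stood at 12107 and 12882 in Runx1 iTG hair germ, at 495.2 and 489 in WT hair germ, at 19461 and 13699 in Runx1 iTG bulge, and at 658 and 903.7 in WT bulge, so its level matched the genotype labels. Cd34 was below background on 3 of the 4 hair germ arrays and at 53.2 on the other, against 4902 to 11208 on the bulge arrays. The hair germ label did not match its markers: all 6 listed hair germ genes (Cdh3, Lef1, Gli1, Msx2, Hoxc13 and Dlx3) were lower in cells labelled hair germ, with summed signals of 837 to 1570.5 in Runx1 iTG hair germ and 1042 to 1957 in WT hair germ, against 6789 to 7592 in Runx1 iTG bulge and 7096 to 10089.9 in WT bulge. Fibroblast and dermal papilla markers were also lower there, in 5 of 8 genes, with summed signals of 1251 to 1921 in Runx1 iTG hair germ and 1125 to 1538 in WT hair germ, against 15802 to 17201 in Runx1 iTG bulge and 12361 to 13858 in WT bulge. Of the bulge markers, 8 of 10 were lower in hair germ, as were 2 of 6 melanocyte and 1 of 6 endothelial markers. These marker counts are of genes called by limma for hair germ minus bulge averaged over both genotypes. Of all genes, 17% were called there in either direction. Of 23 measured immune markers, 18 were above background in a group and limma called 0 in either averaged comparison (0.044% of all genes by genotype). Their median log2 difference was −0.80 for hair germ minus bulge, against −0.09 for all genes. For Runx1 iTG minus WT it was 0.03, against 0.03. Among the immune markers, Ptprc, which marks blood cells, was below background on all 8 arrays. The T cell gene Cd3e was above background on 5, and the macrophage gene Csf1r on all 8, at 54.5 to 113.6. Xist was high on replicate 2 of every group (9973 to 11103) and low on replicate 1 (30.2 to 72.5), so the replicates of each group also differed in sex by this gene. Below, hair germ means the CD34-negative cells so labelled.

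Stat5a was the only STAT or JAK gene with a call: both of its probe sets were called higher in hair germ than in bulge. The difference was 1.72-fold and 1.77-fold averaged over both genotypes, and both calls depended on the arrays and settings used, as given below. By the probe set that stands for each gene, 1 of 9 genes was called there, against 17% of all genes. No other member passed the test in any of the 7 comparisons. For hair germ minus bulge averaged over both genotypes, 2 of 19 probe sets were called at an adjusted p under 0.05 by limma, against 14% of all probe sets (6.63% higher in hair germ), so the members were called at about the rate of the array as a whole. Within transgenic cells, 0 of 19 were called for hair germ minus bulge, against 6.98% of all probe sets, and within WT cells 0 of 19, against 4.61%. At an unadjusted p under 0.05 there were 3 members in the average (27.1% of all probe sets), 2 in transgenic cells (20.1%) and 2 in WT cells (18.3%). Hair germ and bulge arrays did not overlap for 8 members in transgenic cells (48.9% of all probe sets) and for 8 in WT cells (48.8%).

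For Runx1 iTG minus WT, 0 of 19 members were called in bulge (0.00444% of all probe sets), 0 of 19 in hair germ (0.00888%) and 0 of 19 averaged over both populations (0.0377%). At an unadjusted p under 0.05 there were 1 member in bulge (5.67% of all probe sets), 2 in hair germ (6.29%) and 3 in the average (7.46%), the last being Jak3, Stat5a and Stat6. Transgenic and WT arrays did not overlap for 8 members in bulge (33.3% of all probe sets) and for 6 in hair germ (34.7%). The interaction, the genotype difference in hair germ minus that in bulge, had 0 members called by limma and 0 at an unadjusted p under 0.05, against 0% and 4.2% of all probe sets. The median log2 difference of the 19 member probe sets was 0.13 for Runx1 iTG minus WT and 0.19 for hair germ minus bulge in the averaged comparisons. The medians of all probe sets were −0.01 and −0.14. By the probe set that stands for each gene, the medians were 0.13 and 0.04, with 5 of 9 genes positive in each comparison. The medians of all genes were 0.03 and −0.09. Comparisons averaged over populations or genotypes share all 8 arrays. In these bulk samples, fewer cells of a type and less RNA per cell cannot be told apart.

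**Figure D1:**
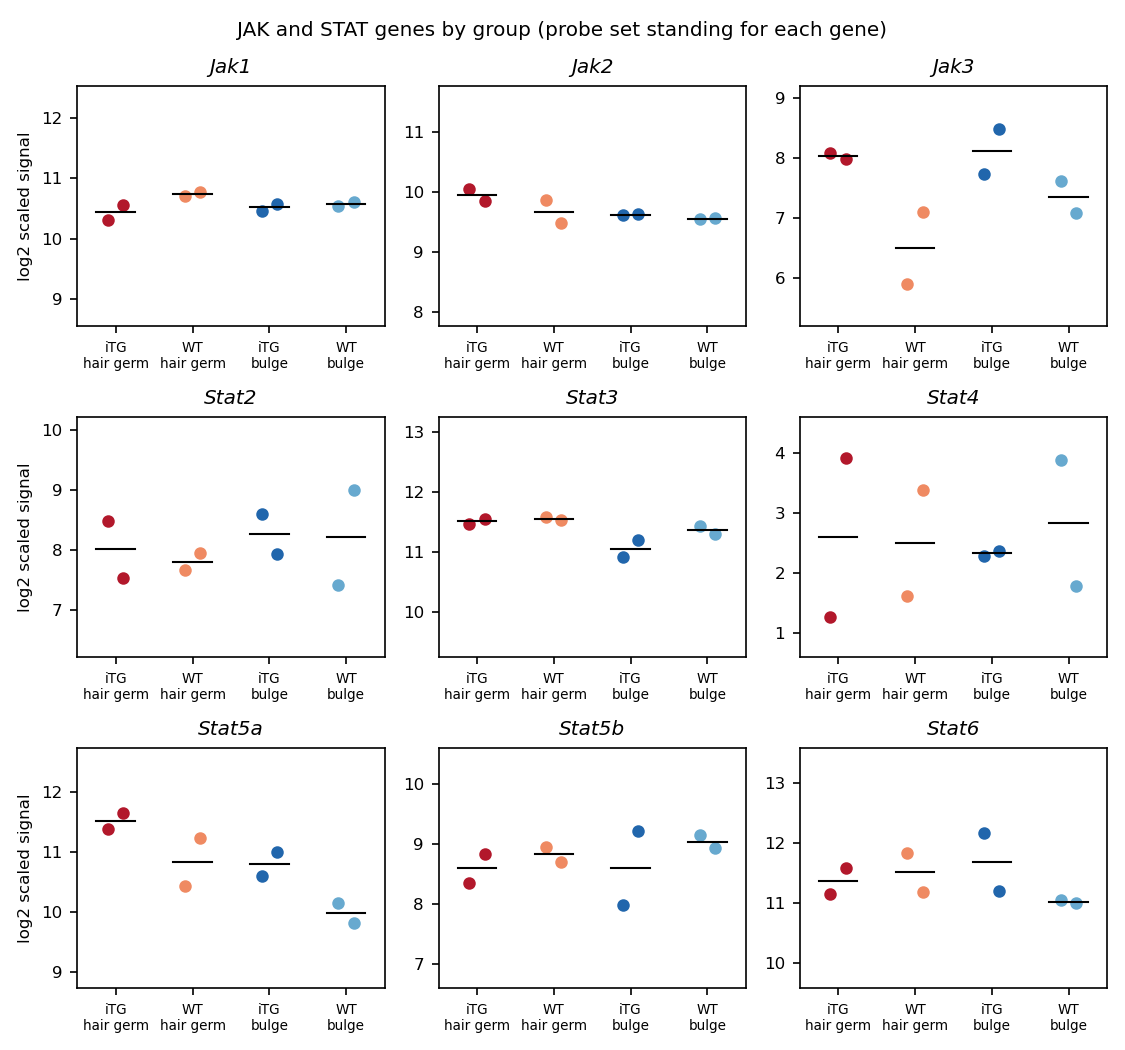
Log2 scaled signal of the probe set that stands for each of the 9 genes, 1 point per array and a line at the group mean, with Runx1 iTG hair germ, WT hair germ, Runx1 iTG bulge and WT bulge from left to right. Each panel spans 4 log2 units around its own middle. Stat5a steps down from Runx1 iTG hair germ to WT bulge, the Jak3 arrays of Runx1 iTG groups all lie above those of WT groups, and Stat4 lies below background throughout.

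**Figure D2:**
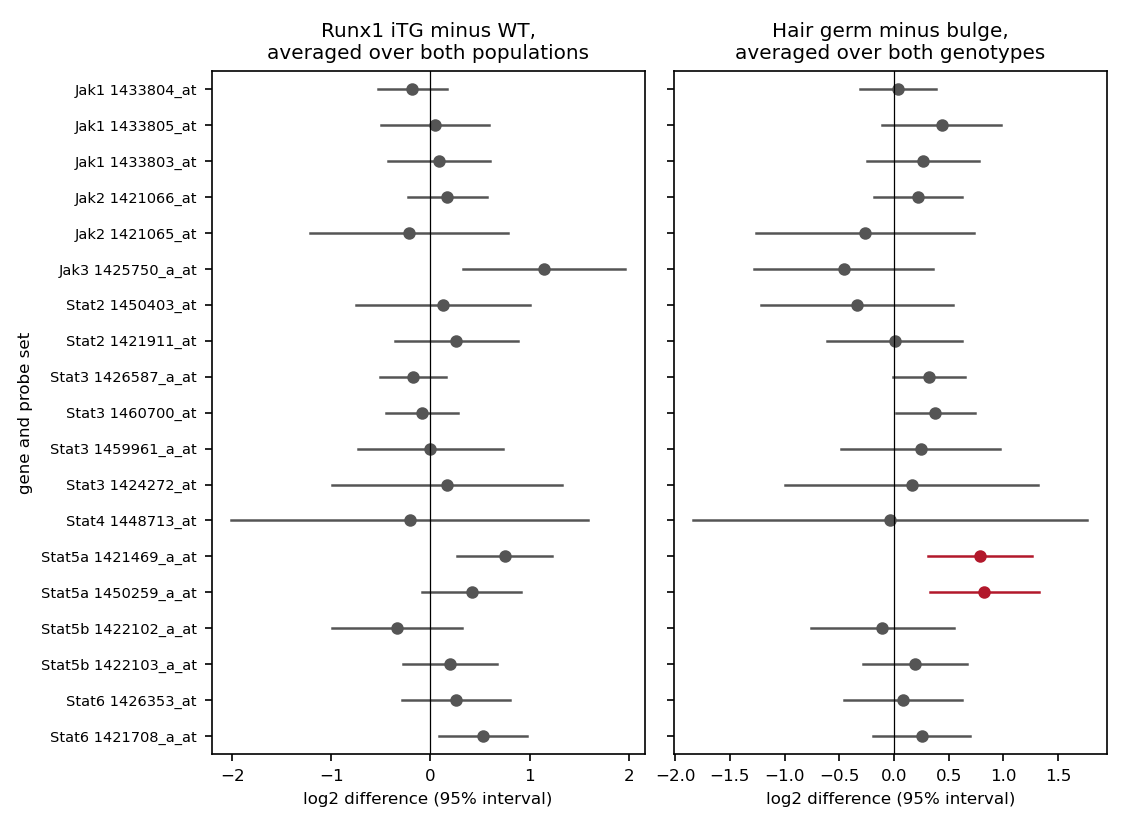
Log2 differences of all 19 probe sets with their 95% intervals, for Runx1 iTG minus WT averaged over both populations (left) and hair germ minus bulge averaged over both genotypes (right). Red marks an adjusted p under 0.05, which both Stat5a probe sets reach on the right.

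Stat5a encodes a STAT protein that relays prolactin, growth hormone and several interleukins. Its probe set 1421469_a_at gave 2659 and 3196 in Runx1 iTG hair germ, 1377 and 2390.1 in WT hair germ, 1539 and 2032 in Runx1 iTG bulge, and 1130.2 and 896 in WT bulge. The Runx1 iTG hair germ arrays were the highest and the WT bulge arrays the lowest, and within each genotype the hair germ arrays lay above the bulge arrays. Across genotypes they overlapped, since WT hair germ replicate 1 lay below both Runx1 iTG bulge arrays. The averaged log2 difference, hair germ minus bulge, was 0.79 (SE 0.21, 95% interval 0.31 to 1.26, n = 4 against 4 arrays, limma adjusted p = 0.0371). It was 0.72 in Runx1 iTG cells (adjusted p = 0.215) and 0.85 in WT cells (adjusted p = 0.163), with an interaction of −0.13 (SE 0.43).

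The second Stat5a probe set, 1450259_a_at, gave 2181 and 2194 in Runx1 iTG hair germ, 1487 and 1826 in WT hair germ, 951 and 1616 in Runx1 iTG bulge, and 1156 and 740.9 in WT bulge. It showed the same order of groups as 1421469_a_at, with hair germ above bulge in each genotype. Its averaged difference was 0.83 (SE 0.22, 95% interval 0.33 to 1.32, limma adjusted p = 0.0358). Both Stat5a calls lay close to the threshold. Leaving out WT hair germ replicate 1 kept the call of 1421469_a_at (adjusted p = 0.0212), and leaving out any of the other 7 arrays lost it (0.0619 to 0.141). The call of 1450259_a_at held without WT bulge replicate 1 (0.0384) and without Runx1 iTG bulge replicate 2 (0.0262) and was lost without any of the other 6 (0.0717 to 0.139). The difference stayed positive in every such fit, at 0.59 to 0.98 and 0.63 to 1.02. Both calls were also lost with quantile normalization (adjusted p = 0.069 and 0.0681), without the intensity trend (0.153 and 0.146) and on the day 20 arrays alone (0.181 and 0.0964). The log2 differences themselves were then 0.68 and 0.74 with quantile normalization, 0.79 and 0.83 without the trend, and 0.82 and 1.01 on the day 20 arrays. Of all probe sets, 12.8% were called with quantile normalization and 7.27% without the trend, against 14% as reported. The fibroblast and hair germ markers given above moved with the same comparison, in the opposite direction, and their part in the Stat5a difference was not tested.

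By genotype, Stat5a was 1.68-fold higher in Runx1 iTG cells by 1421469_a_at (log2 0.75, SE 0.21, 95% interval 0.27 to 1.23), which did not pass over all probe sets (unadjusted p = 0.00595, limma adjusted p = 0.431). The transgenic arrays lay above the WT arrays within bulge (log2 0.81) and within hair germ (0.68). The other Stat5a probe set differed by 0.42 (SE 0.22, adjusted p = 0.73). Of the 10826 genes compared, those most like Stat5a over the 8 arrays were Cdkal1 (Pearson r = 0.984), Tpmt (0.975) and Pts (0.973), a description of arrays that share 4 groups. Pts, for example, gave 696.9 and 954.1 in Runx1 iTG hair germ, 400.4 and 685.2 in WT hair germ, 438.2 and 539.9 in Runx1 iTG bulge, and 379.3 and 340.8 in WT bulge.

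**Figure D3:**
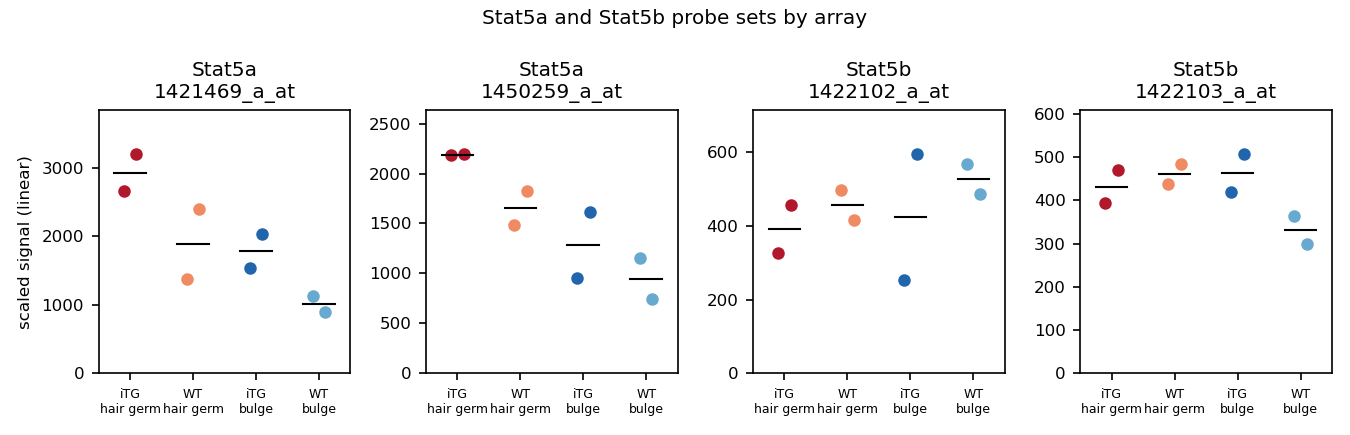
Scaled signal, on a linear axis from 0 in each panel, of both Stat5a and both Stat5b probe sets, 1 point per array and a line at the group mean. Both Stat5a probe sets run from Runx1 iTG hair germ down to WT bulge, and the Stat5b probe sets do not show this order.

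Stat5a, Stat5b and Stat3 lie together on chromosome 11. Promoter windows of 300 bases, from 250 before to 50 after a gene's start, were read from RefSeq (GRCm38.p6) to see which hold the RUNX core motif TGTGGT or the STAT motif TTCNNNGAA on either strand. No member window held both motifs, so none of their matches overlapped. TGTGGT was found in 3 of 12 member windows, those of Stat2, Stat6 and the upstream start of Stat5a, against 16.8% of all 32851 windows. TTCNNNGAA was in 0 of 12 member windows, against 8.3% of all. A match is only a run of letters, and binding was not measured. Both Stat5a windows (plus strand) are shown because this gene was called and has 2 listed starts, and the Stat3 window (minus strand) because Stat3 is the member tied to Runx1 in the background above. Capitals mark the motif, here on the opposite strand and therefore read as its reverse complement, at position 17 from the upstream Stat5a start.
Stat5a upstream start, chr11:100859406-100859705: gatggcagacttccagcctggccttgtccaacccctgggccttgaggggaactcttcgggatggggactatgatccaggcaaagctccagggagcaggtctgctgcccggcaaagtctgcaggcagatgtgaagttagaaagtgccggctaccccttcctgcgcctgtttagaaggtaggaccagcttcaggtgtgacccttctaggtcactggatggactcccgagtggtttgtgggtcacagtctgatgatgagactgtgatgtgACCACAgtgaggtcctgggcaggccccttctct
Stat5a downstream start, chr11:100860234-100860533: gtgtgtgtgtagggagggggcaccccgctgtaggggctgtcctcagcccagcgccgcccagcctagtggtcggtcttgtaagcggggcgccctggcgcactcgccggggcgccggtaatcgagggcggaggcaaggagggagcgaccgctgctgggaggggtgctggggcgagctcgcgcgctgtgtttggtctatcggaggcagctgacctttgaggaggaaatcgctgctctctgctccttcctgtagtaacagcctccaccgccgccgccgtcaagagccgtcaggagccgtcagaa
Stat3, chr11:100939491-100939790: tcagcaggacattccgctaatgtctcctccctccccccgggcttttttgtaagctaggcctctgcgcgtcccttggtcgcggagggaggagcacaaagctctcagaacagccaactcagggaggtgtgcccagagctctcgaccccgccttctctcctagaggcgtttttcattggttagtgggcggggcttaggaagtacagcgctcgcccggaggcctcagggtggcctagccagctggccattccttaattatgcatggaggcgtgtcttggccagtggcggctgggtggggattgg

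Stat5b encodes a near-identical partner of Stat5a, and whether probes of either gene also bind the other's transcript was not tested. Its probe set 1422102_a_at gave 327.5 and 458 in Runx1 iTG hair germ, 498 and 417.3 in WT hair germ, 253.3 and 595.5 in Runx1 iTG bulge, and 568 and 487.3 in WT bulge. The replicates of Runx1 iTG bulge held both the lowest and the highest of the 8 values. The difference was −0.34 for Runx1 iTG minus WT (SE 0.29, limma adjusted p = 0.84) and −0.11 for hair germ minus bulge (SE 0.29, adjusted p = 0.864). The other Stat5b probe set, 1422103_a_at, went the other way by genotype, at 0.19 (SE 0.21). It gave 393.9 and 469.9 in Runx1 iTG hair germ, 437.5 and 483.9 in WT hair germ, 420.2 and 507.2 in Runx1 iTG bulge, and 364 and 298.5 in WT bulge, where only WT bulge stood apart from the rest.

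Stat3, the STAT of interleukin 6 family cytokines, was bright in every group. Its probe set 1426587_a_at gave 2837 and 2996 in Runx1 iTG hair germ, 3070.1 and 2956 in WT hair germ, 1922 and 2362 in Runx1 iTG bulge, and 2755 and 2528 in WT bulge. All 4 hair germ arrays lay above all 4 bulge arrays, as they did for 8.71% of all probe sets. The averaged difference, hair germ minus bulge, was 0.32 or 1.25-fold (SE 0.15, 95% interval −0.01 to 0.65) and was not called (limma adjusted p = 0.2). The probe set 1460700_at gave 2539.7 and 3376 in Runx1 iTG hair germ, 3052 and 2717 in WT hair germ, 2083 and 2103 in Runx1 iTG bulge, and 2638 and 2156 in WT bulge, with a difference of 0.38 (SE 0.16, unadjusted p = 0.0432, adjusted p = 0.168). The other 2 probe sets of Stat3 were dimmer, with a difference of 0.24 (SE 0.33) by 1459961_a_at and 0.16 (SE 0.52) by 1424272_at. The latter lay close to background, at 31.2 to 74.7. All 4 differences were positive, the last 2 within their SE, and none was called.

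For Runx1 iTG minus WT, Stat3 differed by −0.18 averaged over both populations (SE 0.15, limma adjusted p = 0.836). The 95% interval of this difference allows folds of 0.702 to 1.11. In bulge, both transgenic arrays lay below both WT arrays by 1426587_a_at (−0.31, SE 0.21, adjusted p = 0.936), and in hair germ the groups overlapped (−0.05, SE 0.21). Its 4 probe sets ranged from −0.18 to 0.16 for the averaged genotype difference, the upper end being that of 1424272_at (SE 0.52), which lay close to background. The genes most like Stat3 over the 8 arrays were St3gal6 (Pearson r = 0.983), Ilrun (0.972) and Cavin2 (0.967). St3gal6 gave 110.8 and 169.1 in Runx1 iTG hair germ, 229.4 and 160.7 in WT hair germ, 3.15 and 25.1 in Runx1 iTG bulge, and 79.1 and 79.5 in WT bulge, where Runx1 iTG bulge was below background.

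Stat6 relays interleukin 4 and interleukin 13. Its brighter probe set, 1426353_at, gave 2266 and 3054 in Runx1 iTG hair germ, 3653 and 2339 in WT hair germ, 4608 and 2355 in Runx1 iTG bulge, and 2118 and 2039 in WT bulge. Only WT bulge had close replicates, and Runx1 iTG bulge held the highest single array. The genotype difference was 0.66 in bulge and −0.15 in hair germ, with an interaction of −0.82 (SE 0.48, unadjusted p = 0.123). The probe set 1421708_a_at gave 909.6 and 855.7 in Runx1 iTG hair germ, 499.5 and 680.3 in WT hair germ, 610.9 and 814.1 in Runx1 iTG bulge, and 512.1 and 515.2 in WT bulge. Here the transgenic arrays lay above the WT arrays within each population, with an averaged difference of 0.53 or 1.44-fold (SE 0.20, 95% interval 0.08 to 0.97, limma adjusted p = 0.602), which did not pass. The probe sets of Stat6 thus differed in hair germ, where 1421708_a_at gave 0.60 and 1426353_at gave −0.15.

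Stat2 joins Irf9 in the complex that answers type I interferon. Its probe set 1450403_at gave 357.3 and 185 in Runx1 iTG hair germ, 201.9 and 247.1 in WT hair germ, 387.4 and 244.9 in Runx1 iTG bulge, and 171.3 and 512.3 in WT bulge. WT bulge alone spanned the lowest and the highest value, and the groups overlapped. The genotype difference was 0.13 (SE 0.39) and the hair germ minus bulge difference −0.33 (SE 0.39), and 1421911_at gave 0.26 and 0.01 (SE 0.28 each). Stat4, best known from lymphoid cells, lay between 1.55 and 15.1, below background on all 8 arrays, and no fold is given. The RUNX matches of Stat2 and Stat6 are shown as 30-base stretches of their windows (plus strand) because these are the remaining members that hold the motif, at positions −68 and −151 from the start, with the motif in capitals.
Stat2, within chr10:128270248-128270547: tgaagtcggcggTGTGGTttcaagcagctt
Stat6, within chr10:127642736-127643035: gcctccctccagTGTGGTtcaatggagctc

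Jak3 pairs with the common gamma chain of interleukin receptors and is best known from lymphoid cells. It gave 272.3 and 252.7 in Runx1 iTG hair germ, 60 and 137.8 in WT hair germ, 213.6 and 358.8 in Runx1 iTG bulge, and 195.2 and 136.2 in WT bulge. All 4 transgenic arrays lay above all 4 WT arrays, as they did for 1.26% of all probe sets. The averaged difference was 1.15 or 2.21-fold (SE 0.37, 95% interval 0.33 to 1.96, unadjusted p = 0.0109), and it did not pass over all probe sets (limma adjusted p = 0.513). It was 1.53 in hair germ (adjusted p = 0.662) and 0.76 in bulge (adjusted p = 0.936), and the interaction of 0.76 had an SE of 0.73. By population, Jak3 overlapped, with a difference of −0.46 (SE 0.37, adjusted p = 0.478). The summed signal of the immune markers was 1291 to 1682 in Runx1 iTG hair germ and 1739.9 to 1744 in WT hair germ, and 1568 to 2549 in Runx1 iTG bulge against 2047 to 3008 in WT bulge. Of the 23 markers, 13 lay below background in Runx1 iTG hair germ and 10 in WT hair germ, and 8 in Runx1 iTG bulge and 8 in WT bulge. The part of immune cells in the Jak3 difference was not tested.

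Jak1 serves nearly all cytokine receptors, and its probe set 1433804_at had the narrowest range of group means among the probe sets that stand for a gene (0.30 on the log2 scale). It gave 1267 and 1514 in Runx1 iTG hair germ, 1672 and 1746 in WT hair germ, 1407 and 1525 in Runx1 iTG bulge, and 1497 and 1567 in WT bulge. In hair germ both transgenic arrays lay below both WT arrays, by −0.30 (SE 0.22, limma adjusted p = 0.915). The averaged differences were −0.18 by genotype (95% interval −0.53 to 0.16) and 0.04 by population (−0.31 to 0.38). The other 2 probe sets, 1433805_at and 1433803_at, had the opposite sign by genotype, at 0.04 and 0.09. The first of them gave 1416 and 1311 in Runx1 iTG hair germ, 1050.5 and 1277 in WT hair germ, 648.9 and 1197 in Runx1 iTG bulge, and 764.8 and 1249.9 in WT bulge. The second gave 439.8 and 356.3 in Runx1 iTG hair germ, 355.3 and 386.4 in WT hair germ, 302.2 and 355.4 in Runx1 iTG bulge, and 270.1 and 357.1 in WT bulge. Both were highest on an array of Runx1 iTG hair germ, and neither was called.

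Jak2 serves the receptors of growth hormone, prolactin and erythropoietin. Its probe set 1421066_at gave 1061 and 918.9 in Runx1 iTG hair germ, 934.8 and 714.2 in WT hair germ, 786.9 and 793.8 in Runx1 iTG bulge, and 746.7 and 760.1 in WT bulge. Within transgenic cells the hair germ arrays lay above the bulge arrays, by 0.32 (SE 0.25, limma adjusted p = 0.548). The averaged differences were 0.17 by genotype and 0.22 by population (SE 0.18 each). The dimmer probe set 1421065_at gave 281.4 and 113 in Runx1 iTG hair germ, 195 and 140.8 in WT hair germ, 93.8 and 312.4 in Runx1 iTG bulge, and 244 and 254.3 in WT bulge. Its replicates lay far apart in both Runx1 iTG groups, and its differences of −0.22 and −0.26 had an SE of 0.45.

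Around the members, 168 genes of 8 lists (receptors, ligands, inhibitors, partners, and targets of Stat3, Stat5, Stat6 and of interferon with Stat2) were followed, of which 151 had a probe set and 122 were above background in a group. For hair germ minus bulge averaged over both genotypes, 18 of 151 were called, 13 higher and 5 lower. That is 11.9%, below the 17% of the 18193 probe sets that stand for a gene (8.55% higher in hair germ). Fewer were called on the day 20 arrays alone, as was so for all probe sets there. Of 36 receptor genes, 4 rose and 1 fell, a share near that of all genes. Il6st, the gp130 chain shared by the interleukin 6 family, rose 1.93-fold (log2 0.95, adjusted p = 0.00352), to a mean signal of 3767 in hair germ, against 1954 in bulge. Il15ra rose by 1.59 and Ifngr1 by 1.33, while Il22ra1, an interleukin 22 receptor gene, fell by 1.66. The decoy receptor gene Il13ra2 rose by 1.46 in the average. Within genotypes it differed by 0.52 in Runx1 iTG cells (limma adjusted p = 0.674) and by 2.40 in WT cells (adjusted p = 0.039), and the interaction of −1.88 (SE 0.78) did not pass (unadjusted p = 0.0379, adjusted p = 1). Within Runx1 iTG cells, 2 receptor genes were called higher in hair germ and 2 lower, against 6.98% of all probe sets called. The receptor gene Lifr was lower there by 2.01 (limma adjusted p = 0.0398). It differed by 0.51 in WT cells (adjusted p = 0.662), and its interaction of −2.52 (SE 0.70, unadjusted p = 0.00497) did not pass. In the average, Lifr (−0.75), the oncostatin M receptor gene Osmr (0.14) and Ifnar1 (−0.54) were not called.

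Of 29 ligand genes, Il7, a lymphocyte growth factor, rose 11.6-fold in hair germ (log2 3.53, SE 0.35, limma adjusted p = 0.000178), to a mean of 644.1 in hair germ, against 55.6 in bulge. Ifng was also called, at levels below background in both populations. Among 19 inhibitor genes, the phosphatase gene Ptpn1 rose by 0.85 and the PIAS family gene Pias3 fell by 0.83. Of 14 partner genes and of 22 interferon and Stat2 target genes, limma called 0 in either averaged comparison. For hair germ minus bulge, 2 of 29 ligand genes and 2 of 19 inhibitor genes were called. Of all genes, 17% were called for hair germ minus bulge and 0.044% by genotype. The Stat2 partner Irf9 differed by 0.08 between populations and −0.03 between genotypes.

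Of 22 Stat3 target genes, 7 rose in hair germ and 0 fell, against 8.55% of all genes called higher. The list's median was 0.30 against −0.09 for all genes. Of the 22 targets, 21 were above background in a group, while all genes include those below it. With probe sets below background left out, 19.4% of probe sets were called here in either direction, against 14% with them. The list was chosen with earlier results of these data known, so its share is no test of Stat3 activity. The fibroblast and hair germ markers moved in the same comparison, with list medians of −2.51 and −3.57, and their part in these differences was not tested. The called targets were the transcription factor genes Cebpb (2.28), Fos (1.60) and Myc (0.93), the growth factor gene Vegfa (2.41), the survival and division gene Birc5 (1.98), the iron-carrier binding gene Lcn2, and Il6st, which is also a receptor. Cebpb had a mean of 11051 in hair germ, against 2278 in bulge, and Lcn2 had 244.3 in hair germ and lay below background in bulge, so it was at least 7.85-fold higher in hair germ. These genes also answer to other factors. Of 11 Stat5 target genes, the cyclin gene Ccnd2 rose by 1.25 and the helix-loop-helix inhibitor gene Id1 fell by 1.34, and the classical Stat5 target Cish was at −0.09 (adjusted p = 0.918). Of 12 Stat6 target genes, Il13ra2 rose and the arginase gene Arg1 fell by 1.80. The share of all genes called in either direction was 17%.

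**Figure D4:**
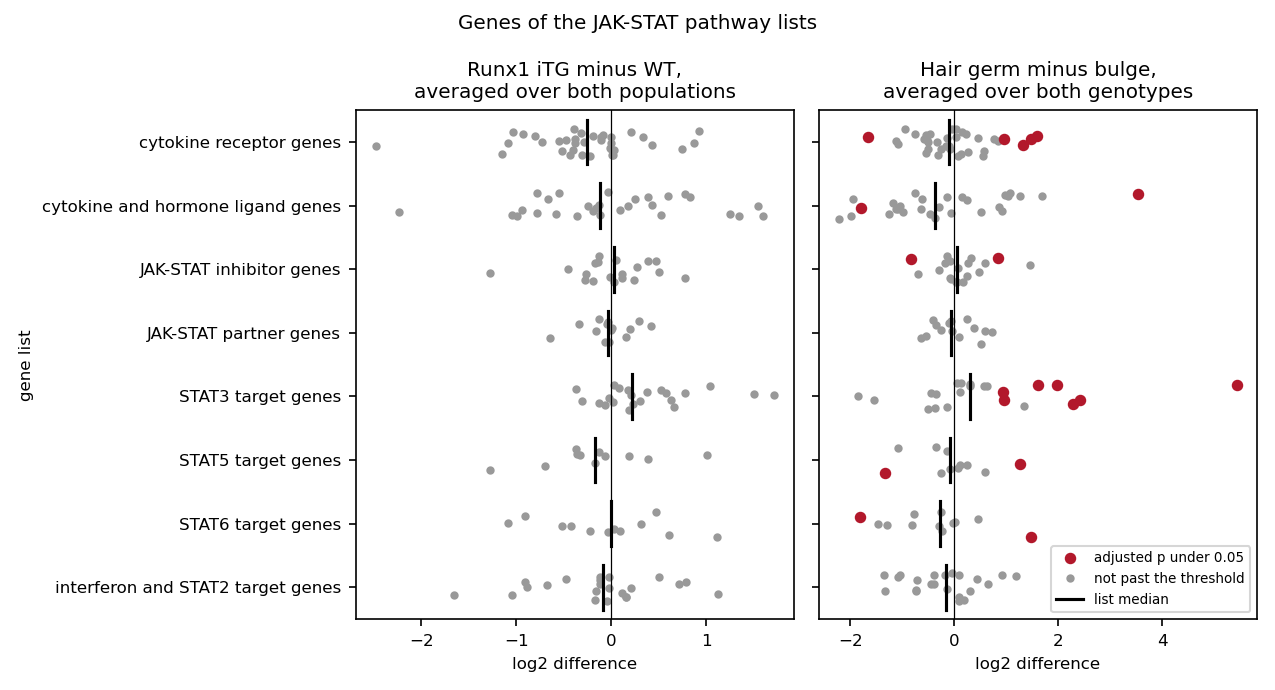
Log2 differences of the measured genes of 8 JAK-STAT pathway lists, 1 point per gene with a bar at the list median, for Runx1 iTG minus WT averaged over both populations (left) and hair germ minus bulge averaged over both genotypes (right). Red points have an adjusted p under 0.05; there are none on the left, and on the right the 7 called Stat3 target genes are all higher in hair germ.

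By genotype, limma called 0 of the 151 pathway genes, against 0.044% of all genes. Fos came closest, 3.27-fold higher in Runx1 iTG cells (log2 1.71, SE 0.24, adjusted p = 0.0728), with means of 7971 in Runx1 iTG hair germ, against 2673 in WT hair germ, and 2883 in Runx1 iTG bulge, against 801.8 in WT bulge. It was called when probe sets below background were left out (adjusted p = 0.0254) and with the replicate number as a block (0.0393). More of all probe sets were then called as well, 0.147% and 0.0466%, against 0.0377% as reported. Socs3, which blocks gp130 receptors and is itself a Stat3 target, was 1.72-fold higher (log2 0.78, SE 0.20, unadjusted p = 0.00292, adjusted p = 0.362), with means of 786.8 in Runx1 iTG cells and 458.1 in WT cells. Socs4 differed by 0.02 (SE 0.17), and Socs2, a Stat5 target, by −1.27 (SE 0.64, adjusted p = 0.71). Cebpb differed by 0.63, Pias2 by 0.50, the interleukin 13 receptor gene Il13ra1 by −0.48, Il6ra by −0.73 and the gp130 ligand gene Ctf1 by −0.94, none of which passed. Il13ra2 differed by −1.09 (SE 0.39, limma adjusted p = 0.578), with −2.03 in hair germ (adjusted p = 0.52) and −0.15 in bulge, and did not pass either.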

How the data were processed

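Total RNA of sorted mouse skin cells was measured on 8 Affymetrix arrays. Per the labels' protocols, 5 ng of RNA was amplified and biotin-labelled with NuGEN kits. The authors deposited 1 processed intensity per probe set and array, on a linear scale, and no source used here names the program. Trimmed of 2% at each end, the array of WT bulge replicate 1 averages 500, and this mean was taken for that array only. Deposited array medians were 101.7 to 162, and 69% to 77% of probe sets lay above background on each array. The number of arrays limits the precision.

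The 64 control probe sets were removed, the 75th percentile of every array was set equal, a floor of 2.42 was applied (reached by 3.48% of values), and signals were put on the log2 scale. Background is the 95th percentile of 27 bacterial control probe sets. A model with group means was fitted over the 8 arrays in R 4.3.3, using limma 3.58.1 (lmFit, and eBayes with an intensity trend; 4 residual degrees of freedom), over 45037 probe sets, and p-values were adjusted over all of them by Benjamini-Hochberg. Every adjusted p is from this fit unless a setting is named. The fit was tested on simulated data. The annotation gave 1 gene symbol to 34945 probe sets, several to 932 and none to 9160, and the probe set with the highest mean log2 stood for a gene. Group means of pathway genes are means of log2 values turned back to signal.

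Values per array are given for all member probe sets except 1421911_at of Stat2, 1459961_a_at and 1424272_at of Stat3, and that of Stat4, which lay below background. Pathway genes are named where called (up to 10 by p per comparison), otherwise up to 4 by unadjusted p per list. Lifr, Osmr, Ifnar1, Irf9, Cish and Socs4 were named in addition, after their values were seen. Likeness is Pearson's r of log2 values. The members and lists were chosen with earlier results of these data known. The labels call the samples biological replicates; the labels do not say whether hair germ and bulge samples of 1 number share animals, so averaged comparisons may not rest on independent samples.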

Additional observations from a re-analysis of the deposited data

How the results depend on the processing

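Of 19 STAT and JAK probe sets, the 2 called for hair germ minus bulge averaged over both genotypes (both Stat5a) became 0 with quantile normalization, 0 without the intensity trend and 0 on the day 20 arrays only, and 0 to 1 when 1 array was left out. They stayed at 2 on the deposited scale, with an offset of 50, without dim probe sets and with the replicate block. Of all probe sets, 12.8% were called with quantile normalization and 7.27% without the intensity trend, against 14% as reported. Fewer of all probe sets were also called on the day 20 arrays and whenever 1 array was left out. The pathway genes called in that comparison went to 9 on the day 20 arrays, against 18 as reported. Those called by genotype went to 1 (Fos) without dim probe sets and to 1 with the replicate block, against 0. Of all probe sets, 0.147% were called by genotype without dim probe sets and 0.0466% with the block, against 0.0377% as reported. The replicate block changed no other call among 142 results. The labels do not say what a replicate number shares, and the correlation of deviations between same-numbered arrays was −0.04 to 0.14 over 6 pairs of groups, so the samples were not treated as paired, although Xist divides every group by replicate number. Fitting only the groups compared could not be applied to averaged comparisons and the interaction.

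None of the values that changed sign had been called. With the mean of a gene's probe sets, Stat5b became 0.0239 for Runx1 iTG minus WT in bulge, Stat6 became 0.22 and Jak1 0.00905 for the same difference in hair germ, Jak1 became 0.27 for hair germ minus bulge in Runx1 iTG, and Jak2 became −0.0227 for the averaged hair germ minus bulge. On the day 20 arrays that last difference was 0.50 for Jak2 (1421065_at) and −0.27 for Stat6 (1426353_at). Leaving out 1 array gave Stat5b (1422102_a_at) −1.05 to 0.18 and Stat2 (1450403_at) −0.73 to 0.85 for Runx1 iTG minus WT in bulge, and Jak2 (1421065_at) −0.81 to 0.93 and Stat5b (1422102_a_at) −0.62 to 0.61 for hair germ minus bulge in Runx1 iTG. Why these values moved was not tested. The median of all probe sets for the averaged hair germ minus bulge was −0.14 as reported, 0.02 with quantile normalization and −0.20 on the deposited scale.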
